A study of Homo sapiens with 4 samples.

Results

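The homing receptors of B cells were followed by RNA sequencing in SU-DHL-2. This established human line derives from a diffuse large B-cell lymphoma and is labelled as lymph node tissue. The set holds 10 genes taken by name from the 61267 rows of the deposited count table: the chemokine receptors CCR7, CXCR4, CXCR5 and CCR6, the sphingosine-1-phosphate receptors S1PR1, S1PR2 and S1PR4, the oxysterol receptor GPR183, the receptor P2RY8 and GNA13, the gene of the G protein alpha subunit Gα13. All 10 passed the filter on low counts, CXCR4 and S1PR1 through the Spautin-1 libraries alone, so these had to differ and the counts over the set are descriptions. The study gave wild-type SU-DHL-2 cells either solvent (vehicle, 2 libraries) or Spautin-1 at 10 μM for 36 h (2 libraries). Spautin-1 is known as a blocker of the deubiquitinases USP10 and USP13 and of autophagy. Every library came from this 1 cell line. Since no label gives the replicates separate cultures, each p-value reflects spread among these libraries alone, and that spread may be technical.

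Lymphoid tissue is laid out by gradients of chemokines and lipids that B cells read through receptors of this kind. CXCR5 draws cells into the follicle toward CXCL13, CCR7 toward the T-cell zone, CXCR4 toward CXCL12 in the germinal centre dark zone and bone marrow, GPR183 (EBI2) to the follicle edge, and S1PR1 out of the tissue into lymph or blood. S1PR2 and P2RY8 act the other way: they signal through Gα13 and hold germinal centre B cells in place, and this confining arm is often mutated in germinal centre lymphomas. Chemokine receptors and S1PR1 couple mainly to Gi proteins, and their signals are cut short by regulators of G-protein signalling (RGS) and by G-protein receptor kinases.

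After Spautin-1, 7 of the 10 genes were higher: CXCR4, CCR7, GPR183 and S1PR1 by 4.56-fold to 9.23-fold, GNA13 and P2RY8 by 1.69-fold each, and CXCR5 by 1.25-fold. The other 3, CCR6, S1PR2 and S1PR4, did not pass the test (quasi-likelihood F test in edgeR, with the Benjamini-Hochberg threshold of 0.05 applied across 18368 genes). Of all genes tested, 22.0% were called, 11.5% higher and 10.5% lower. None of the 10 was called lower by edgeR, DESeq2 or limma-voom, and 0 were lower at an unadjusted p under 0.05. Both Spautin-1 libraries lay above both vehicle libraries in 7 of the 10 genes, against 30.8% of all genes tested. These are the 7 called genes, and a call favours such a separation. CCR6, with at most 18 reads in any library, was the 1 gene of the set with both Spautin-1 libraries below both vehicle libraries. This arrangement was seen in 30.6% of all genes. The median log2 fold change of the 10 was 0.76, against -0.01 over all genes tested. In these bulk libraries a change in RNA per cell and a change in the share of cells that hold the RNA cannot be told apart.

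The libraries held 34115420 to 38362526 counts. Mitochondrial genes took 5.25% and 4.94% of the counts in the vehicle libraries and 8.34% and 7.63% after Spautin-1; their part in the results was not tested. The 8 B-cell markers were present in every library, with a summed level of 456 to 508 TPM in vehicle and 611 to 616 TPM after Spautin-1 (TPM is a level per exonic length). Of 6 plasma cell markers 2 were called higher, XBP1 and PRDM1, and the summed level of the 6 went from 474 and 707 TPM to 765 and 939.99 TPM. XBP1 made most of this sum, at 415 and 649 TPM in vehicle and 678 and 839 TPM after Spautin-1, while MZB1 stood at 30.4 and 34.2 against 21.2 and 24.2 TPM and did not pass; the part of this in the results was not tested. Markers of T cells (8), NK cells (6), stromal cells (7) and endothelial cells (4) summed to at most 2.34 TPM in any library. TRAC, KLRD1, GNLY, NCR1, COL3A1, LUM and CDH5 had 0 reads in all 4. Other markers of these lists had reads, among them CD8A at 0.317 to 0.548 TPM and NKG7 at 0.507 to 1.86 TPM. The 8 myeloid markers summed to 15.0 to 18.2 TPM, of which CD68 made 11.4 to 15.2 TPM.

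Features of the counting bear on the low and the overlapping genes. Of the values from 1 to 10, between 75.5% and 78.1% were even in each library, as when both reads of a pair are counted, so a low count may stand for fewer fragments than reads. Reads were also given to more than 1 gene: of 254 genes whose exons lie wholly inside the exons of a gene on the opposite strand with at least 1000 reads, 86.6% had at least 10 reads, and of 128 such genes on the same strand 85.9%. Reads of overlapping genes can therefore not be told apart in this table on either strand. CCR7, CXCR4, S1PR1, S1PR4, GPR183, P2RY8 and GNA13 share no exonic base with another gene of the table.

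Sequences upstream of the start sites are shown for the pair of genes with the largest changes that have an entry among the RefSeq promoters (GRCh38.p14), CXCR4 and GPR183, and for S1PR2, which did not pass the test. Each line gives the 250 bases before the annotated start, 5′ to 3′ on the strand of the gene: chr2:136118150-136118399 (minus) for CXCR4, chr13:99307400-99307649 (minus) for GPR183 and chr19:10231332-10231581 (minus) for S1PR2. Capitals mark matches on either strand to TATAAA, to the cAMP response element TGACGTCA and to its half-site TGACG.
CXCR4: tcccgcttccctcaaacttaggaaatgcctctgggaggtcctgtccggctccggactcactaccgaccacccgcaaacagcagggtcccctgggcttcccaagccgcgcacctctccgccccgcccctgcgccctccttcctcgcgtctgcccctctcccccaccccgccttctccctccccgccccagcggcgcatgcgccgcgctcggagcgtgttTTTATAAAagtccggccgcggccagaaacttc
GPR183: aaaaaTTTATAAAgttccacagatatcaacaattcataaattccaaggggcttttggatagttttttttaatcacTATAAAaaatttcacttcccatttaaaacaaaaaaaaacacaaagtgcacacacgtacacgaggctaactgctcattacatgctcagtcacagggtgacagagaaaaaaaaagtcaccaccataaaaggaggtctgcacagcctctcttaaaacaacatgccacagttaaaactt
S1PR2: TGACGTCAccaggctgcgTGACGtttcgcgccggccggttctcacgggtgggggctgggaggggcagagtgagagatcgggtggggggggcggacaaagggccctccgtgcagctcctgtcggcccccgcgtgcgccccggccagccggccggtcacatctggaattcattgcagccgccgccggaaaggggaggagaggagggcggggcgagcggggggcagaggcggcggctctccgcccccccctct
The CXCR4 window holds TATAAA 30 bases before the start, overlapping its reverse complement. In GPR183 the matches to TATAAA lie 175 and 243 bases before the start, the latter also overlapping its reverse complement, and GC makes up 34.4% of the window, against 68.0% in CXCR4 and 74.0% in S1PR2. TATAAA was found in 10.7% of 34960 RefSeq windows of this length.

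Of the 10 genes 9 had at least 1 window, 15 windows in all. The full cAMP response element TGACGTCA, a site of CREB proteins, was found in 1 of the 15, that of S1PR2, where it contains matches to the half-site on both strands; it was in 1.65% of all windows. The half-site was found in S1PR2 and in a downstream window of CXCR4, and in 21.2% of all windows. The NR4A element AAAGGTCA (1.04% of all windows) and the AP-1 site TGANTCA (6.54%) were in none of the 15. A 10-base NF-kB pattern was found upstream of S1PR1 and S1PR4 (9.97% of all windows), and the octamer ATGCAAAT, read by OCT2, in a window of CCR6 (1.63%). The windows of CXCR5, P2RY8 and GNA13 held none of the motifs searched.

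**Figure D1:**
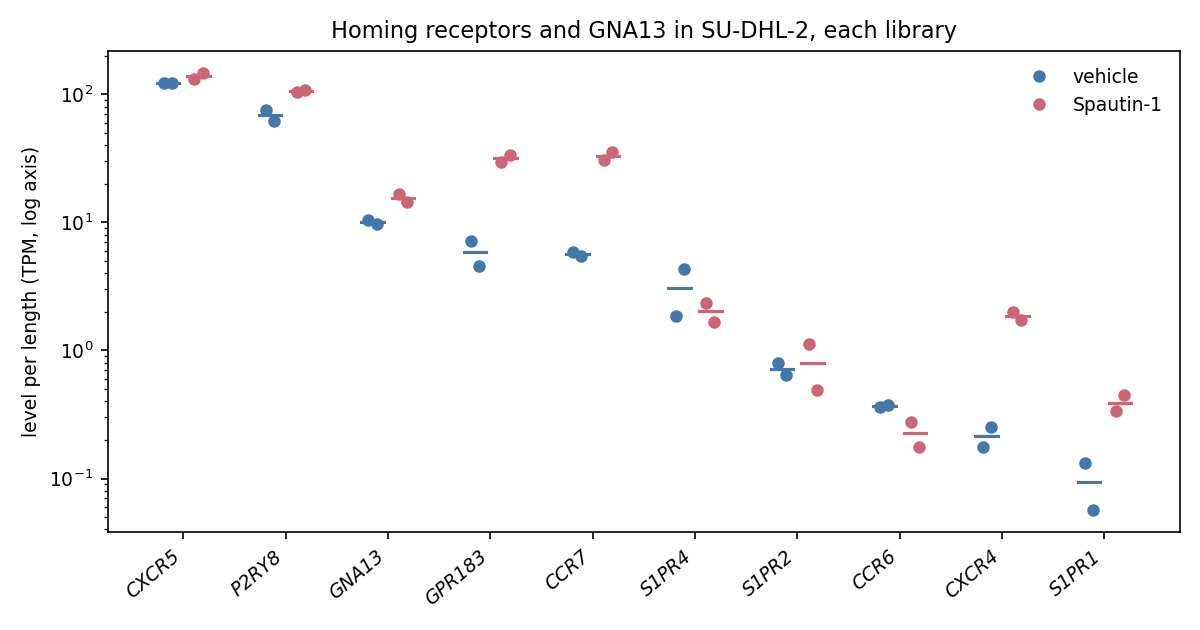
Level per exonic length (TPM, log axis) of the 10 genes in each library, ordered by the vehicle mean; points are libraries (2 vehicle, 2 Spautin-1) and bars are group means. CXCR4, CCR7 and GPR183 move furthest, and CXCR4 passes from 0.177 and 0.254 TPM to 1.98 and 1.74 TPM.

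The levels per length spanned a wide range. In vehicle CXCR5 stood highest at 123 and 122 TPM, followed by P2RY8 at 75.5 and 62.3 TPM and GNA13 at 10.4 and 9.78 TPM. GPR183 at 7.22 and 4.54 TPM and CCR7 at 5.87 and 5.52 TPM overlapped in their range. S1PR4 came next at 1.85 and 4.34 TPM, then S1PR2 at 0.799 and 0.647 TPM and CCR6 at 0.364 and 0.376 TPM, with CXCR4 and S1PR1 lowest. After Spautin-1 the order of the first 2 was kept, with CXCR5 at 133 and 148 TPM and P2RY8 at 104 and 109 TPM. CCR7 at 30.7 and 35.6 TPM and GPR183 at 29.7 and 33.5 TPM, which overlapped again, now stood above GNA13 at 16.7 and 14.6 TPM. CXCR4 reached the range of S1PR4 (2.36 and 1.68 TPM), and CCR6 was lowest at 0.278 and 0.177 TPM.

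CCR7 (chromosome 17, 40553769 to 40565472, GRCh38, minus strand), the receptor of CCL19 and CCL21, was counted 172 and 188 times in the vehicle libraries and 1098 and 1149 times in the Spautin-1 libraries. Scaled to CPM (counts relative to library size, with TMM factors), this was 4.95 and 4.87 against 29.3 and 33.2 CPM, 2 narrow ranges far apart. The mean rose from 4.91 ± 0.0612 to 31.2 ± 2.76 CPM (SD, n = 2 each). On the log2 scale the change was 2.67 ± 0.16 (SE), with an edgeR adjusted p of 1.07e-06. This was the 136th highest log2 fold change of the 18368. CCR7 stayed called, between 2.58 and 2.74, whichever library was left out and under every other setting run.

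CXCR4 (chromosome 2, 136114349 to 136119177, minus strand), the receptor of CXCL12, was close to the limit of detection in vehicle, with 6 and 10 reads, and had 82 and 65 after Spautin-1. In CPM these are 0.173 and 0.259 against 2.19 and 1.88. CXCR4 rose 9.23-fold, a log2 fold change of 3.21 ± 0.50 (edgeR adjusted p = 0.000882), with a 95% interval of 2.13 to 4.28. It entered the test through the Spautin-1 libraries alone, since neither vehicle library reached the 0.273 CPM the filter asked for. Over all settings run its log2 fold change lay between 2.95 and 3.53, and it stayed called in each. Even after the rise its level was low, at 1.49% and 1.18% of that of CXCR5 per length.

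CXCR5 (chromosome 11, 118883892 to 118897787, plus strand), which reads CXCL13 and marks follicular B cells, had 6140 and 7105 reads in vehicle and 8128 and 8167 after Spautin-1. In CPM it stood at 177 and 184 against 217 and 236, separate ranges with a small gap. The log2 fold change was 0.33 ± 0.10 (edgeR adjusted p = 0.0364). Without Spautin-1 replicate 1 it was 0.37 and without replicate 2 it was 0.27, close to the full fit. Such a fit takes its spread from the vehicle pair alone, and the call was lost in both. It was also lost with library size as the only scaling (0.29, adjusted p = 0.063). Moreover 3913 of its 4293 exonic bases lie in exons of BCL9L, a Wnt co-activator on the opposite strand, so its reads cannot be told apart from those of BCL9L. BCL9L was counted 6793 and 8070 times in vehicle and 8803 and 8639 times after Spautin-1, and did not pass the test (0.26 ± 0.10, edgeR adjusted p = 0.083). BCL9L exceeded CXCR5 by 472 to 965 reads per library, although 6875 of its 10788 exonic bases lie outside CXCR5.

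CCR6 (chromosome 6, 167111807 to 167139141, plus strand), the receptor of CCL20 on naive and memory B cells, was at the edge of detection throughout, with 15 and 18 reads in vehicle and 14 and 8 after Spautin-1. Both vehicle libraries but only 1 Spautin-1 library reached the 0.273 CPM of the filter. Its log2 fold change of -0.56 ± 0.70 did not pass (edgeR adjusted p = 0.615), with a 95% interval of -2.07 to 0.95 that allows a change in either direction. Of its 3526 exonic bases 3005 are shared with ENSG00000272980 on the same strand.

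Within a library, comparisons between receptors do not depend on scaling. Per length, CXCR5 stood 20.9 and 22.1 times above CCR7 in vehicle and 4.32 and 4.15 times above it after Spautin-1. Its share of the 4 chemokine receptors went from 95.0236% and 95.2% to 80.1% and 79.8%, while that of CCR7 went from 4.56% and 4.31% to 18.5% and 19.2%. These ratios carry the limit that CXCR5 shares its reads with BCL9L. With 2 libraries a group, the smallest p of an exact two-sided permutation test is 0.333, so they are given without a test. CCR7 and GPR183, in contrast, kept a ratio near 1: 0.814 and 1.21 in vehicle against 1.03 and 1.06 after Spautin-1, ranges that overlap.

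GPR183 (chromosome 13, 99294539 to 99307399, minus strand), which senses 7α,25-dihydroxycholesterol, was counted 142 and 104 times in vehicle and 715 and 726 times after Spautin-1. In CPM the libraries stood at 4.09 and 2.69 against 19.1 and 21.0. The gap between the groups was several times the gap between the vehicle libraries. GPR183 rose 5.92-fold, a log2 fold change of 2.57 ± 0.21 (edgeR adjusted p = 9.74e-06), and stayed called, between 2.29 and 2.89, in every setting run.

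S1PR1 (chromosome 1, 101236865 to 101243713, plus strand), the egress receptor, had 8 and 4 reads in vehicle and 25 and 30 after Spautin-1, or 0.230 and 0.104 against 0.666 and 0.866 CPM. The groups did not overlap, and the log2 fold change was 2.19 ± 0.72 with a 95% interval of 0.63 to 3.75 (edgeR adjusted p = 0.0464). Like CXCR4 it passed the filter through the Spautin-1 libraries alone. Without vehicle replicate 1 the log2 fold change was 2.84 (adjusted p = 0.0442), and without vehicle replicate 2 it was 1.72 and not called (adjusted p = 0.197). Nor was it called when Spautin-1 replicate 1 (2.35, adjusted p = 0.14) or replicate 2 (2.00, adjusted p = 0.296) was left out. It also missed the threshold with DESeq2 (adjusted p = 0.0614) and limma-voom (adjusted p = 0.0537).

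S1PR2 (chromosome 19, 10221433 to 10231331, minus strand), the confining receptor, had 34 and 32 reads in vehicle and 58 and 23 after Spautin-1. The Spautin-1 libraries lay on either side of the vehicle libraries. The log2 fold change was 0.30 ± 0.50 (edgeR adjusted p = 0.726; 95% interval -0.80 to 1.39). It turned to -0.45 without Spautin-1 replicate 1, and 83 of its exonic bases are shared with DNMT1, a maintenance DNA methyltransferase with 24615 to 42089 reads a library that fell by 0.59 on the log2 scale (edgeR adjusted p = 0.0012). S1PR4 (chromosome 19, 3172346 to 3180332, plus strand), found mainly on lymphocytes, had 36 and 98 reads in vehicle and 56 and 36 after Spautin-1, so the vehicle libraries enclosed the others. Its log2 fold change of -0.50 ± 0.45 did not pass (edgeR adjusted p = 0.475; 95% interval -1.48 to 0.48), and it was 0.29 without vehicle replicate 2. Neither interval excludes a change of 1.25-fold, the size called for CXCR5.

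P2RY8 (chromosome X, 1462581 to 1537185, minus strand), the receptor of S-geranylgeranyl-L-glutathione, lies in the pseudoautosomal region with an identical copy on Y, and the table joins both copies in 1 row. It was counted 3990 and 3834 times in vehicle and 6708 and 6320 times after Spautin-1, or 115 and 99.2 against 179 and 182 CPM. The log2 fold change was 0.75 ± 0.11 (edgeR adjusted p = 0.000602) and stayed called, between 0.65 and 0.86, in every setting run. For levels per length the length of 1 copy, 4528 bases, was used.

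GNA13 (chromosome 17, 65009289 to 65056740, minus strand), which carries the signal of S1PR2 and P2RY8, had 782 and 854 reads in vehicle and 1530 and 1204 after Spautin-1, or 22.5 and 22.1 against 40.8 and 34.8 CPM. The vehicle libraries agreed closely and both Spautin-1 libraries lay above them. GNA13 rose by a log2 fold change of 0.76 ± 0.14 (edgeR adjusted p = 0.00224). Without Spautin-1 replicate 1 it missed the threshold (0.63, adjusted p = 0.0524). GNA13 and P2RY8 kept their ratio per length, at 0.138 and 0.157 in vehicle and 0.161 and 0.134 after Spautin-1.

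**Figure D2:**
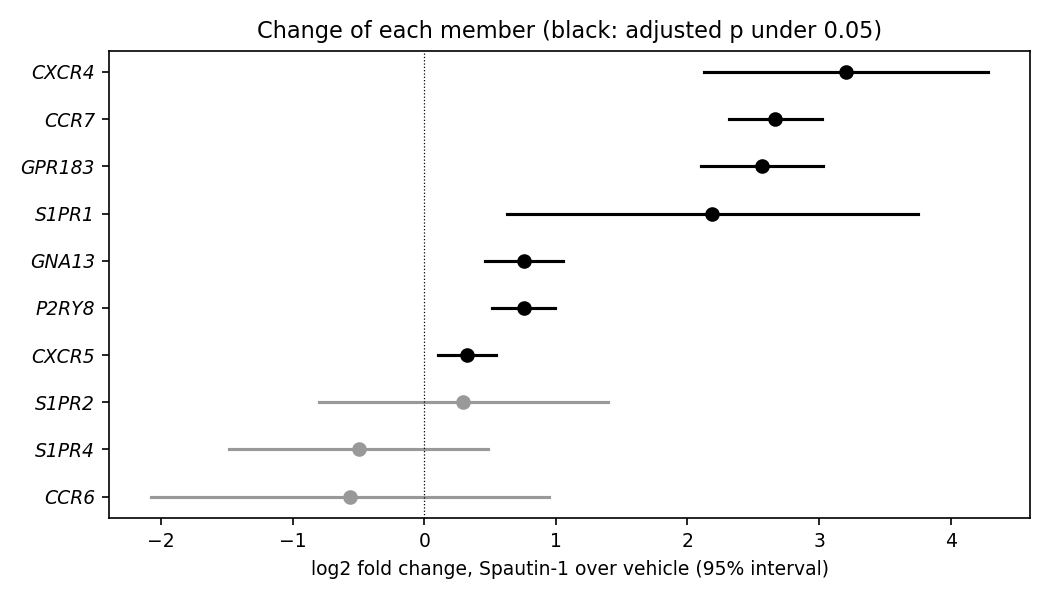
Log2 fold change of each gene (Spautin-1 over vehicle; point) with its 95% interval (line) from the edgeR fit over all genes; black marks an adjusted p under 0.05 and grey the rest. The intervals of CCR6, S1PR2 and S1PR4 cross 0, and that of S1PR1 is the widest among the 7 called genes.

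**Figure D3:**
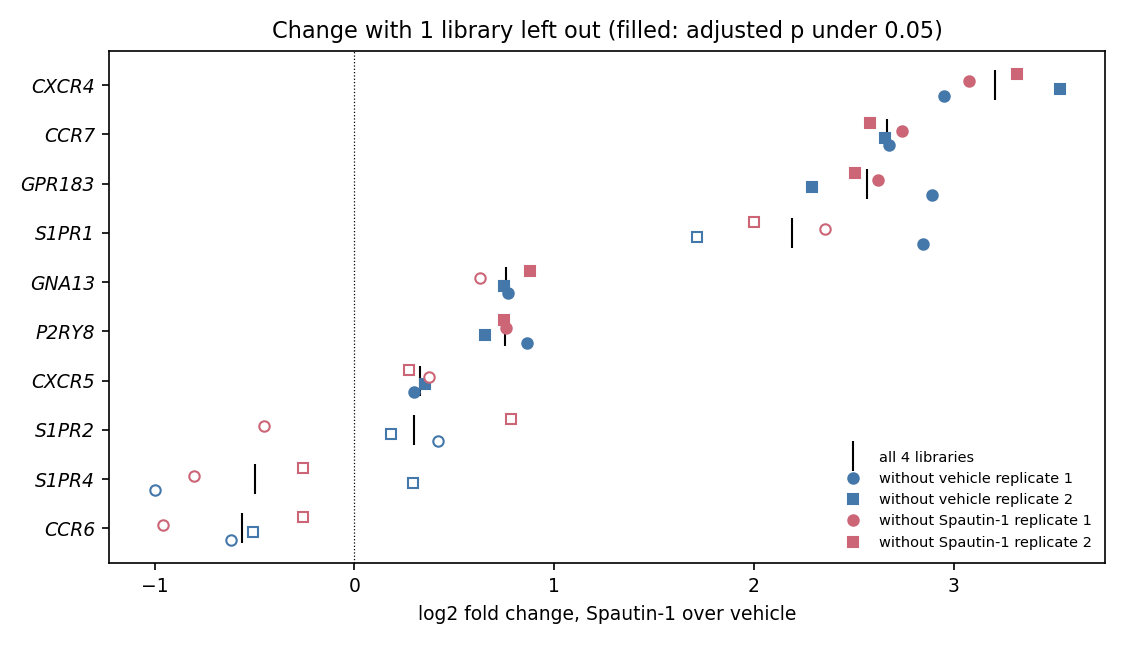
Log2 fold change of each gene with all 4 libraries (vertical tick) and with 1 library left out (blue, a vehicle library; red, a Spautin-1 library); filled symbols have an adjusted p under 0.05. CCR7, CXCR4, GPR183 and P2RY8 stay filled throughout, while S1PR1, CXCR5 and GNA13 do not.

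Over the whole set, 7 genes were called without vehicle replicate 1, 6 without vehicle replicate 2, 4 without Spautin-1 replicate 1 and 5 without Spautin-1 replicate 2. The calls of CCR7, CXCR4, GPR183 and P2RY8 held in each of these fits. A fit without 1 library assumes that the lone library of its group varies like the other group. The chi-square per gene between replicates was 27.6 in vehicle and 8.33 after Spautin-1. Without a Spautin-1 library the spread thus comes from the wider vehicle pair, and fewer genes were called over the whole table. Without a vehicle library more were called. A call lost or gained in such a fit is therefore not by itself a trait of the gene.

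Genes around the receptors were read from lists of their ligands, relatives and signalling partners. In the list of ligands and ligand metabolism, 14 of 21 genes were tested, 3 rose and 5 fell, with a median of -0.62. The share called was 57.1%, against 22.0% of all genes tested. CXCL13, the ligand of CXCR5, rose from 6 and 22 reads to 134 and 158, a log2 fold change of 3.42 ± 0.45 (edgeR adjusted p = 0.0003). In vehicle it stood at 0.173 and 0.569 CPM, and 0.273 CPM was asked for in 2 libraries. Vehicle replicate 2 alone did not meet this, so CXCL13 needed at least 1 Spautin-1 library to pass the filter, and its call is a description. The log2 fold change of CXCL13 also moved with the vehicle library used. It was 2.83 without vehicle replicate 1 and 4.53 without vehicle replicate 2, called in both. Much of the list acts on sphingosine-1-phosphate or related lipids, and so do all 5 that fell. These were the kinase SPHK2 at -0.98, the exporter SPNS2 at -1.07, the phosphatase SGPP2 at -0.79 and the lipid phosphatase PLPP1 at -1.20. The lyase SGPL1 at -0.55 was the last and was named after its value was seen. SGPP1 (0.65) and the lipid phosphatase PLPP3 (1.38) rose (edgeR adjusted p of 0.000193 to 0.0436 for these 7). CCL19, a ligand of CCR7, had 16 and 18 reads in vehicle and 2 and 4 after Spautin-1 and did not pass (edgeR adjusted p = 0.058). It passed the filter through the vehicle libraries alone (0.461 and 0.466 CPM), so it had to differ and its values are a description. CXCL12, CCL20 and CH25H, which makes the precursor of the GPR183 ligand, had at most 2 reads in any library, and CCL21 and CYP7B1 had none. SGPP1 was not called without vehicle replicate 2 or either Spautin-1 library, PLPP1 without vehicle replicate 1 or either Spautin-1 library, SPNS2 and SPHK2 without Spautin-1 replicate 1, and SGPL1 without vehicle replicate 2 (-0.36, edgeR adjusted p = 0.0692) or Spautin-1 replicate 2 (-0.36, adjusted p = 0.412). With 1 library left out (first each vehicle library, then each treated one), 3, 2, 2 and 2 genes of the list were higher and 4, 4, 2 and 3 lower. SPHK2 and PLPP1 share 22.3% and 29.6% of their exonic bases with other genes.

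Of the other chemokine, lipid and purine receptors, 19 of 42 were expressed enough to be tested. Among them 4 rose and 1 fell, with a median of 0.40. The prostaglandin E2 receptor PTGER4 rose 3.44-fold from 8.42 ± 2.01 to 29.0 ± 3.43 CPM (SD, n = 2 each; edgeR adjusted p = 5.56e-05). GPR132 rose 2.18-fold and GPR55 2.43-fold. CCR4, the receptor of CCL17 and CCL22, went from 2 and 0 reads to 33 and 43. Like CXCR4 it passed the filter through the Spautin-1 libraries alone, so it had to differ and its call is a description. The purine receptor P2RY11 fell 2.79-fold, but 61.3% of its exonic bases belong to other genes as well. Without vehicle replicate 1, 6 receptors of the list were higher, and 4 in the other 3 fits that left out a library. No read was found in any library for 8 of the 42, among them CCR1, CCR8 and S1PR5, named after their values were seen.

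In the G12/13 arm, 4 of 19 tested genes rose and 1 fell, with a median of 0.04. The myosin light chains MYL9 (1.55) and MYL12A (0.80) and the GTPase-activating proteins ARHGAP25 (0.87) and ARHGAP15 (0.74) rose, and RIC8A, a chaperone of G protein alpha subunits, fell by 0.39 on the log2 scale (edgeR adjusted p of 0.000219 to 0.0342). ARHGEF1, an exchange factor that Gα13 activates, was at -0.28 and did not pass (edgeR adjusted p = 0.165). It was at -0.47 without vehicle replicate 1 and -0.07 without vehicle replicate 2, so its size depended on the vehicle library used. ARHGEF1 was named after its values were seen. In the same order of libraries left out, 6, 5, 3 and 4 genes were higher and 3, 3, 0 and 0 lower. RIC8A was not called without either Spautin-1 library, nor ARHGAP15 without Spautin-1 replicate 1.

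In the Gi and chemotaxis arm 2 of 29 tested genes rose and 1 fell, with a median of -0.03. This made 10.3% of the list called, against 22.0% of all genes, a difference that was not tested. The G protein gamma subunit GNG2 rose by 0.98 ± 0.14 and the kinase PTK2B by 0.92 ± 0.14, while RASSF5, an effector of Rap in integrin activation, fell by 0.55 on the log2 scale (edgeR adjusted p of 0.000588 to 0.0242). Leaving out the libraries in that order gave 3, 3, 2 and 2 higher and 5, 4, 0 and 0 lower, and RASSF5 was not called without either Spautin-1 library.

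Among genes of receptor desensitisation and trafficking, 4 of 21 rose and 3 fell, with a median of 0.01. All 4 that rose are RGS proteins: RGS1 stood at 2.994 and 3.002 CPM in vehicle against 229 and 244 CPM after Spautin-1, RGS2 rose by 3.40 ± 0.17, RGS16 by 1.32 ± 0.20 and RGS13 by 0.50 ± 0.14 on the log2 scale (edgeR adjusted p of 1.01e-10 to 0.0211). RGS19 fell by 0.51, the kinase PRKCD by 0.44 and the endosomal sorting protein HGS by 0.60 (edgeR adjusted p of 0.00666 to 0.0422). HGS shares 25.9% of its exonic bases with other genes. CD69, which takes S1PR1 off the surface, had no read in either vehicle library and 16 and 8 after Spautin-1, too few to be tested in the fit of all 4 libraries. Fits without 1 library applied the filter anew, so their counts may include genes not tested in the full fit. In the order used above, 5, 4, 3 and 4 genes were higher and 6, 3, 1 and 0 lower. RGS13, PRKCD and RGS19 were not called without either Spautin-1 library, RGS19 also without vehicle replicate 2, nor HGS without Spautin-1 replicate 2.

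Among 22 adhesion and homing molecules 5 rose and 3 fell, with a median of 0.21. The hyaluronan receptor CD44 rose 2.73-fold from 257 ± 7.49 to 703.5 ± 7.69 CPM, ITGB7 2.03-fold and the tetraspanin CD37 1.44-fold. The integrin chains ITGA4 (1.78-fold) and ITGB2 (1.75-fold) and FERMT3, the kindlin that activates integrins in blood cells, fell (1.75-fold). ITGB7 and ITGA4 share 42.3% and 26.4% of their exonic bases with other genes. Without vehicle replicate 2, 8 were higher, and without Spautin-1 replicate 2, 3 were higher and 2 lower, with CD37 and ITGB2 no longer called.

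Of 18 tested transcription factors in the list, 8 rose and 2 fell, with a median of 0.45. PRDM1, which drives plasma cell differentiation, rose 6.44-fold, IRF4 2.43-fold, the B-cell coactivator POU2AF1 2.50-fold and HIF1A 2.07-fold. BCL6, the germinal centre repressor, fell 1.70-fold from 47.2 ± 1.38 to 27.8 ± 0.367 CPM (SD, n = 2 each; edgeR adjusted p = 0.00116), and POU2F2 fell 1.51-fold. KLF2, known as an activator of S1PR1, had 1 and 1 read in vehicle and 11 and 0 after Spautin-1 and was not tested. Without vehicle replicate 1, 4 factors were lower. Of 13 housekeeping genes, 2 rose, RPLP0 by 0.75 and PPIA by 0.28 on the log2 scale (median of the 13, 0.03); 1 was higher without either Spautin-1 library, 3 without vehicle replicate 2, and PPIA was not called without either Spautin-1 library.

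**Figure D4:**
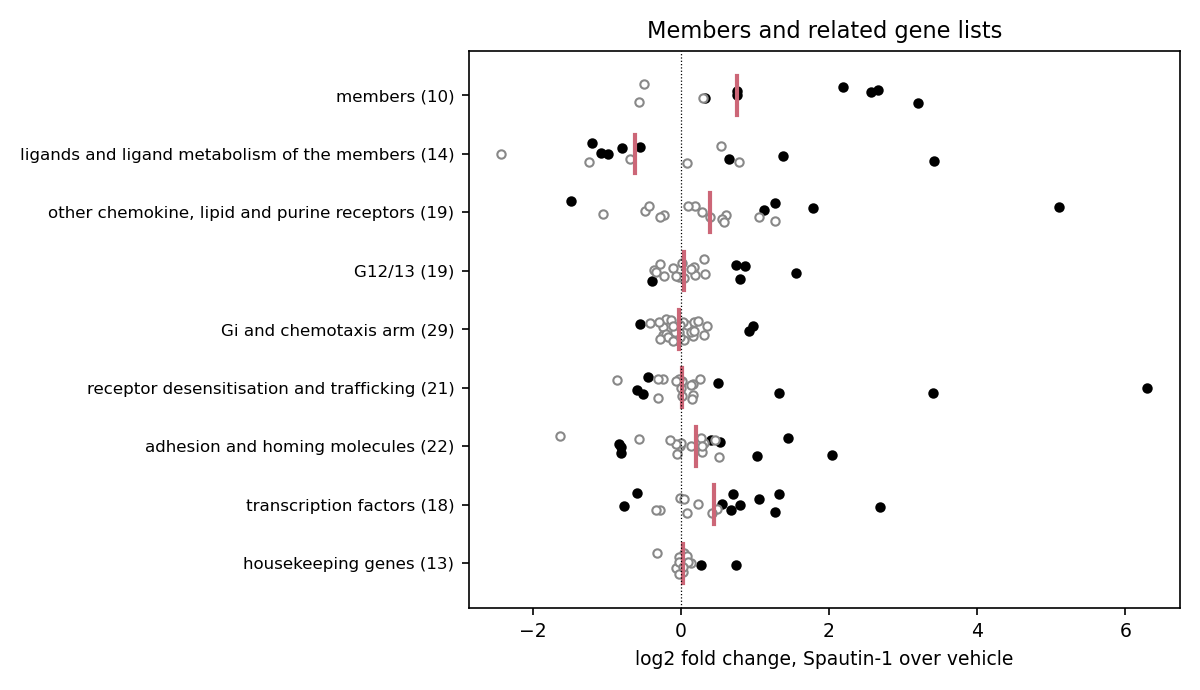
Log2 fold change (Spautin-1 over vehicle) of each tested gene of the 10-gene set and of 8 related lists; the number tested is in brackets, filled points have an adjusted p under 0.05 and red bars are medians. The set of 10 has its median at 0.76, and the Gi and chemotaxis arm lies close around 0.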

How the data were processed

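Total RNA (TRIzol) went into a Vazyme kit for stranded mRNA libraries, per the labels' protocols. Trimmomatic 0.36, featureCounts of Subread 1.5.1, edgeR 3.12.1 and GRCh38 are named in the submitters' processing notes. The aligner, annotation release and counting options are not named in the sources used here. The table deposited by the authors holds, per gene, unnormalised read counts in each library and the exonic length, per the file headers.

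Counts were filtered with filterByExpr (minimum count 10, minimum total 15), scaled by TMM and tested with edgeR 4.0.16 in R 4.3.3 (quasi-likelihood, two-sided, Benjamini-Hochberg over 18368 genes, threshold 0.05, 2 residual degrees of freedom). SE is the log2 fold change divided by the root of F, and TPM was computed from counts and lengths. Alternatives were RLE, upper quartile and library size scaling, other filters, DESeq2 1.42.0, limma-voom (limma 3.58.1), a replicate block, a threshold of 0.01 and leaving out each library; halving the counts was added after the data were seen. The procedure was tested on simulated data.

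The members and lists were chosen with earlier results of these data known. Named are the 10 members, up to 4 called genes per direction and list with the smallest p, and RGS1, CD69 and KLF2; 1 further gene the rule names is not reported here. The median log2 fold change over all genes was -0.01. Replicate libraries differed by more than sampling noise. Intervals on low counts cover the fitted spread only.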

Additional observations from a re-analysis of the deposited data

How the results depend on the processing

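CCR7, CXCR4, GPR183 and P2RY8 were called under each of 13 alternatives, GNA13 under 12 of 13, CXCR5 under 10 of 13 and S1PR1 under 7 of the 12 that tested it. Asking for 1 CPM in 2 libraries left CCR6, S1PR1 and S1PR2 untested, and halving the counts left CCR6 untested. Library size scaling, DESeq2, limma-voom and the 1 CPM filter each gave 6 members called higher, and a threshold of 0.01 gave 5; none was called lower in any setting. With 1 library left out S1PR2 ran from -0.45 (without Spautin-1 replicate 1) to 0.78 and S1PR4 from -0.9999 to 0.29 (without vehicle replicate 2), and both turned sign; the cause was not tested. With 1 library left out, 4 to 7 members were called higher, and 1067 to 2981 genes were called higher and 780 to 2785 lower; at a threshold of 0.01 they were 1077 and 861. For the lists the same range was 2 to 3 higher and 2 to 4 lower for ligands, 4 to 6 and 1 in each case for other receptors, 3 to 6 and 0 to 3 for the G12/13 arm, 2 to 3 and 0 to 5 for the Gi arm, 3 to 5 and 0 to 6 for desensitisation, 3 to 8 and 2 to 4 for adhesion, 7 to 9 and 2 to 4 for transcription factors, and 1 to 3 higher for housekeeping genes. In the G12/13 arm 2 genes were lower without a filter and with the replicate block, and 1 housekeeping gene was higher with upper quartile, with library size scaling and with DESeq2; the cause was not tested. Replicate numbers are not said to mark a shared culture, and the difference between replicates 1 and 2 correlated at -0.0015 between the groups across genes, which are not independent. With the replicate block 7 members were called higher, with 2615 genes higher and 2485 lower, and no call of a member changed. CXCR4, S1PR1, S1PR2, S1PR4 and CCR6 had at most 98 reads in any library; with the counts halved CXCR4 and S1PR1 stayed called.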
